A study of Homo sapiens with 2 samples.

Results

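The 9 genes described here encode transcription factors that direct the formation of epidermis, and they were read in RNA-seq libraries of HaCaT, an immortal line of human keratinocytes that arose without an introduced oncogene. They were taken by symbol from a gene table of 15159 genes: TP63, GRHL1, GRHL2, GRHL3, KLF4, OVOL1, PRDM1, ZNF750 and MAF. All 9 were listed there. The vector control dish received the MigR1 vector and the FLI1 overexpression dish received the same vector with FLI1, a transcription factor of the ETS family, inserted. Each dish was given 4 μg of DNA by lipid transfection, and RNA was taken on day 2, after the cells had been looked at for GFP. The share of cells that took up DNA is not given in the sources used here, so each library is a whole dish of transfected and untransfected cells. The question of the series is the relation of FLI1 to inflammation genes of psoriasis, a disease in which epidermal differentiation is disturbed.

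Epidermis renews itself from a basal layer, whose cells stop dividing and move outward through the spinous and granular layers to become cornified cells. The p63 protein, encoded by TP63, sets epithelial identity and keeps basal cells able to divide. The grainyhead-like factors GRHL1, GRHL2 and GRHL3 act on genes of junctions and barrier formation, while the zinc finger factors KLF4, ZNF750, PRDM1 and OVOL1 act mainly in cells that are leaving the basal layer. In human keratinocytes, MAF acts upstream of several of these late factors.

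With 1 library per group, none of the differences below has a replicate check and no test between conditions was possible. FLI1 itself had 64 reads in the vector control against 2452 in the FLI1 library, in the direction of the labels. The libraries held 14497105 and 14677273 reads after each estimated count was rounded. A ratio is given as FLI1 library over vector control on the log2 scale, after scaling by TMM (trimmed mean of M values), with a 95% interval that covers counting error only. PCR copies were not marked by molecular identifiers, so reads need not be separate molecules, and an interval compares these libraries and not the conditions. The keratinocyte markers KRT5 (89561 and 74603 reads, ratio -0.26, -0.27 to -0.24) and KRT14 (52971 and 50897 reads, -0.05, -0.07 to -0.03) were abundant in both libraries. Of the 8 keratinocyte markers none was 1.5-fold apart, 5 had intervals below 0 and 3 (COL17A1, DSG3 and SFN, at 0.38, 0.26 and 0.12) above it, and their part in the factors' ratios was not tested. In RNA from a whole dish, fewer cells of a kind and less RNA per cell cannot be told apart.

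The late factors PRDM1, KLF4 and ZNF750 were higher in the FLI1 library, while the basal factor TP63, the grainyhead-like genes and OVOL1 were near their control values. PRDM1 was 4.91-fold, KLF4 2.05-fold and ZNF750 1.58-fold higher. TP63 and GRHL3 were 1.09-fold and 1.15-fold higher, and GRHL1, GRHL2 and OVOL1 had intervals that included 0. Of the 9 factors, 3 were at least 1.5-fold higher, compared with 3.51% of the 11659 genes that reached 20 reads in 1 or both libraries. At least 2-fold higher were 2 of the 9, compared with 1.19% of these genes, and 1 of the 9 from FPKM with 0.5 added. None of the 9 was at least 1.5-fold or 2-fold lower, against 2.09% and 0.480% of all. Intervals lay above 0 for 5 of the 9 and below 0 for none, against 16.5% and 14.7% of all. Intervals narrow as reads rise, and these shares of all genes, here and below, were not matched for read depth. The median ratio of the 9 factors was 0.13, and that of all genes past the minimum was -0.0036. MAF was under this minimum in both libraries. PRDM1 passed it through the FLI1 library only, where it was the higher, so counts over the 8 that passed carry no weight of their own.

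**Figure D1:**
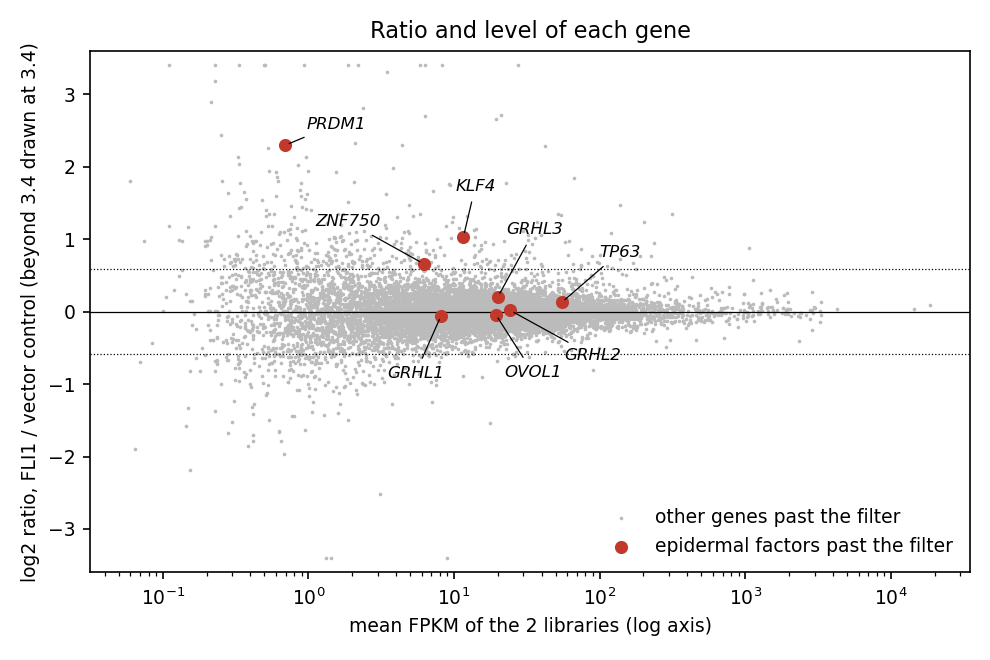
Each point is a gene that reached 20 reads in 1 or both libraries, by its mean FPKM over both libraries (log axis) and its log2 ratio, FLI1 library over vector control, with points beyond the axis drawn at its edge. Dotted lines mark 1.5-fold. PRDM1 (2.30), KLF4 (1.04) and ZNF750 (0.66) lie above the upper line, and the other 5 red points lie between the lines.

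Levels per length were compared by FPKM, which scales fragments by gene length and library size. In the vector control library TP63 was the highest of the 9 at an FPKM of 53.03. GRHL2 followed at 24.4, OVOL1 at 19.8 and GRHL3 at 18.8. GRHL1 (8.38), KLF4 (7.72) and ZNF750 (4.83) were lower, and PRDM1 (0.19) and MAF (0.07) were near the bottom of the table. The counting intervals of the levels of OVOL1 (18.4 to 21.2) and GRHL3 (17.4 to 20.2) overlapped, as did those of GRHL1 (7.58 to 9.24) and KLF4 (6.87 to 8.65), and those of PRDM1 (0.111 to 0.304) and MAF (0.0273 to 0.140). In the FLI1 library KLF4 stood at an FPKM of 15.5 (14.3 to 16.8), above GRHL1 at 7.96 (7.18 to 8.80), while ZNF750 at 7.53 (6.73 to 8.40) now overlapped GRHL1. The intervals of GRHL3 (19.8 to 22.9) and OVOL1 (17.6 to 20.3) still overlapped there. PRDM1 at 1.20 (0.959 to 1.48) lay above MAF at 0.04 (0.0125 to 0.0898). Among all 15159 genes ranked by FPKM, KLF4 held place 7554 in the control against 5162 in the FLI1 library, ZNF750 8734 and 7559, PRDM1 12418 and 10747, and TP63 1761 and 1624.

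**Figure D2:**
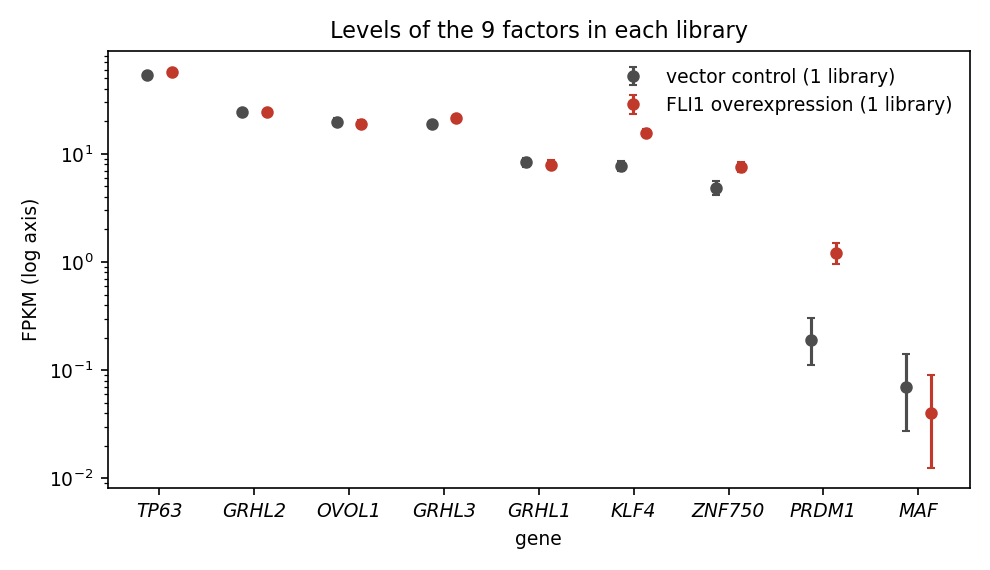
FPKM of each of the 9 factors (log axis) for the vector control (grey) and FLI1 (red) libraries, 1 of each, with bars for the 95% counting interval of the reads. The bars of KLF4, ZNF750 and PRDM1 do not overlap between the libraries. Those of TP63 are narrowly apart (up to 54.87 in the control, from 54.96 in the FLI1 library). The bars of GRHL1, GRHL2, GRHL3, OVOL1 and MAF overlap.

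TP63 (gene ID 8626), at 189631416 to 189897279 on chromosome 3 (GRCh38, plus strand), encodes the p63 proteins. It had 3301 estimated reads in the vector control against 3583 in the FLI1 library, a log2 ratio of 0.13 (0.06 to 0.19). This 1.09-fold difference exceeded counting error at the depth of this gene. The gene has an upstream start, used by the TA forms, which carry the full transactivation domain, and an internal start, used by the deltaN forms, which prevail in basal keratinocytes. GENCODE pairs 5 of the 8 listed TP63 transcripts with a start. The 3 deltaN transcripts held 2571 estimated reads in the control against 2866 in the FLI1 library, which was 77.9% and 80.0% of the gene. The 2 TA transcripts held 62.5 and 66.2 estimated reads, or 1.89% and 1.85%. The remaining 3 transcripts, without such a pair, held 20.2% and 18.2%. The deltaN group had a ratio of 0.16 (0.09 to 0.24) and the TA group 0.07 (-0.45 to 0.60), so a difference of the TA forms was not detectable at this depth. The deltaN transcript NM_001114980 alone took 65.7% and 66.7% of the TP63 reads. Reads were assigned to transcripts that have exons in common, and the error of that assignment is not in the intervals.

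The grainyhead-like genes GRHL1 (gene ID 29841), GRHL2 (79977) and GRHL3 (57822) encode factors that bind a common DNA motif. GRHL3 is needed for epidermal barrier and wound closure in mice. In GENCODE, GRHL1 spans 9951693 to 10002277 on chromosome 2 and GRHL3 spans 24319322 to 24364482 on chromosome 1, both on the plus strand. GRHL1 had 402 reads in the control against 385 in the FLI1 library (log2 ratio -0.05, interval -0.26 to 0.15). GRHL2 had 1689 and 1699 reads (0.02, -0.08 to 0.11). Both intervals included 0, and that of GRHL2 spans folds of 0.945 to 1.08. GRHL3 had 688 and 788 reads (0.20, 0.05 to 0.35) and was the only one of the family with an interval above 0. In the transcript table the family was less even. The main GRHL1 transcript NM_198182 held 66.8% of the gene in the control against 80.2% in the FLI1 library, while XM_006711882 had 122 and 76.3 estimated reads (-0.67, -1.11 to -0.25). The GRHL2 transcript XM_011517306 had 55.1 and 115 estimated reads (1.07, 0.60 to 1.56), beside 1453 and 1400 for the main transcript NM_024915. The main GRHL3 transcript NM_198173 held 80.0% and 79.1% of the gene. The minor GRHL3 transcript NM_001195010 had 5.56 and 32.9 estimated reads and NM_198174 had 8.72 and 25.0. These transcripts were picked after their values had been seen.

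Upstream sequence was available for 6 of the 9 factors in the RefSeq promoter table (GRCh38.p14). The 250 bases before the annotated start are shown for KLF4 and PRDM1, the higher pair for which the table has an entry, and for GRHL1, which did not differ beyond counting error. Capitals mark GGAA or its reverse complement TTCC, the core that ETS-family proteins such as FLI1 bind, searched on both strands and in any overlap. The KLF4 window is chr9:107489770-107490019 on the minus strand. It lies inside the span that GENCODE gives the gene, which reaches 107490482 on the upstream side, but in no exon annotated there. The PRDM1 window is chr6:106086086-106086335 on the plus strand, before the start used by transcript NM_001198, and its last 16 bases lie within a first exon that GENCODE starts earlier. The GRHL1 window is chr2:9951443-9951692 on the plus strand.
KLF4: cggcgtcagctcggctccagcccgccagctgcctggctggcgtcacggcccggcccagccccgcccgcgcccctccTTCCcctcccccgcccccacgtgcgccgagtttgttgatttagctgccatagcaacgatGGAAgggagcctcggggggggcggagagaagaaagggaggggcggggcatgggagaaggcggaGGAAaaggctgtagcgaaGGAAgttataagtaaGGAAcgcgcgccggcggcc
PRDM1: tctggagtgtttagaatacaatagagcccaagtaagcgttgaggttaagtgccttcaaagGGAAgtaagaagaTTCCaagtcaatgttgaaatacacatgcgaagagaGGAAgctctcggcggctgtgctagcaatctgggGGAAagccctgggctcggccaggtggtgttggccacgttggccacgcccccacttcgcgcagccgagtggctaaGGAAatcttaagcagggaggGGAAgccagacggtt
GRHL1: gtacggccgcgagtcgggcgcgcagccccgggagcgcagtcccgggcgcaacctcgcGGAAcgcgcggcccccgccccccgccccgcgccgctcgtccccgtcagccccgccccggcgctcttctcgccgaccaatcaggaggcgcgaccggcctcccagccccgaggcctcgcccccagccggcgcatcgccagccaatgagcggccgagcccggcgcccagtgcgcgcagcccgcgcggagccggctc
The core occurred 5 times in the KLF4 window, 6 times in the PRDM1 window and 1 time in the GRHL1 window. A second PRDM1 window, before a later start, held it 4 times, the 2 windows of GRHL3 (1.15-fold higher) 6 and 2 times, that of MAF 3 times and that of TP63 1 time. The TP63 window lies before the upstream start of the TA forms, which held 1.89% and 1.85% of the reads of that gene. Sequence before the internal start, used by the prevailing deltaN forms, was not searched. The core is frequent in promoters, since 92.7% of 35116 windows of this length held it, with a median of 3 matches. The longer word AGGAAG, which contains the core, was found 1 time in the KLF4 window, 35 bases before the start, and 1 time in the PRDM1 window, 143 bases before it, against 28.7% of all windows. It was also found 1 time in each GRHL3 window, 98 and 34 bases before the start, and 1 time in the MAF window, 204 bases before it, and not in the second PRDM1 window or those of GRHL1 and TP63. CGGAAG, also containing the core, was in 1 GRHL3 window, in none of the other windows of the factors and in 16.5% of all. The KLF4 window also holds TATAA on both strands, 28 and 29 bases before the start, as 18.9% of windows hold it on either strand. A match of letters is a description and not a bound site, and no binding was measured.

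KLF4 (gene ID 9314), a Krüppel-like zinc finger factor required for the skin barrier in mice, lies on the minus strand of chromosome 9 from 107484852 to 107490482. It had 298 reads in the vector control against 608 in the FLI1 library, a log2 ratio of 1.04 (0.83 to 1.24). Only 124 of the 11659 genes past the minimum had a higher ratio. Counting error alone puts the fold between 1.78 and 2.36, so the value cannot be placed above or below 2-fold. Of the 2 listed KLF4 transcripts, NM_004235 had 291 and 539 estimated reads (0.90, 0.69 to 1.11). The other, NM_001314052, had 7.37 and 69.0 estimated reads (3.22, 2.19 to 4.68), and its share of the gene was 2.47% and 11.3%. Both transcripts were higher in the FLI1 library, and GENCODE pairs both with the same transcript, so the split carries the error of assigning reads between them.

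PRDM1 (gene ID 639) encodes BLIMP1, a repressor that works in granular layer keratinocytes of mice and is best known from plasma cells. Its span is 106086320 to 106109939 on chromosome 6, plus strand. It had 17 reads in the vector control against 85 in the FLI1 library, a log2 ratio of 2.30 (1.57 to 3.17), or 4.91-fold with a counting interval of 2.96 to 9.03. Of the genes past the minimum, 22 had a higher ratio. On the FPKM scale the levels of 0.19 and 1.20 are 6.32-fold apart, and FPKM also depends on the lengths of the transcripts to which reads were assigned. In the control all 17 reads were assigned to XM_011536064. In the FLI1 library 73.7 estimated reads went to NM_001198, 8.52 to NM_182907 and 2.80 to XM_011536064. NM_001198 was thus listed at 0 in the control and held 86.7% of the gene in the FLI1 library, and with 17 control reads this difference of transcript rests on how those few were assigned. The opposite-strand gene ATG5, an autophagy gene whose annotated span overlaps that of PRDM1, had 551 and 667 reads (0.28, 0.12 to 0.45). Whether the reads were counted by strand is not given, so its part in the PRDM1 counts was not tested.

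PRDM1 is also made by leukocytes, so markers of those cells are given beside it. The leukocyte markers CD14, CD79A, ITGAX and LYZ had 14 reads in all in the control against 15 in the FLI1 library, and none of the 4 reached 20 reads in either. CD14 had 0 and 2 reads and LYZ 10 and 7. The leukocyte markers PTPRC and CD3E, the endothelial markers PECAM1 and TEK and the fibroblast markers COL3A1, DCN, LUM and PDGFRA were not analysed here. Among endothelial markers VWF had 52 and 90 reads (0.79, 0.29 to 1.32), CDH5 0 and 1, and KDR 1 and 1. The fibroblast marker COL1A2 had 1 and 1 read. Of the melanocyte markers MITF had 56 and 72 reads (0.37, -0.15 to 0.90), and MLANA, TYRP1 and DCT had at most 5 reads in either library. The part of VWF-positive or other cells in the factors' ratios was not tested.

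ZNF750 (gene ID 79755) encodes a zinc finger protein that p63 switches on and that, with KLF4, turns on late epidermal genes and turns off basal ones. It lies on the minus strand of chromosome 17 from 82829435 to 82840578. It had 202 estimated reads in the vector control against 318 in the FLI1 library, a log2 ratio of 0.66 (0.40 to 0.92), and 340 genes past the minimum had a higher ratio. A single transcript, NM_024702, carried all its reads. ZNF750 lies within the span of TBCD, a tubulin folding gene on the other strand, which had 1324 and 1288 estimated reads (-0.03, -0.14 to 0.08). The interval of TBCD included 0, and its part in the ZNF750 counts was not tested.

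OVOL1 (gene ID 5017), a zinc finger repressor that helps keratinocytes to stop dividing and holds back mesenchymal genes, spans bases 65787022 to 65797219 of chromosome 11 (plus strand). It had 786 reads in the vector control against 760 in the FLI1 library (-0.04, -0.19 to 0.10). Of the late factors read here it was the most abundant in the control and the only one whose interval included 0. Its main transcript NM_004561 held 92.6% and 94.2% of the reads. MAF (gene ID 4094), a basic leucine zipper factor on the minus strand of chromosome 16, had 7.22 and 5.20 estimated reads. Its ratio of -0.44 had an interval from -2.48 to 1.39, so a difference in either direction was not detectable at this depth.

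**Figure D3:**
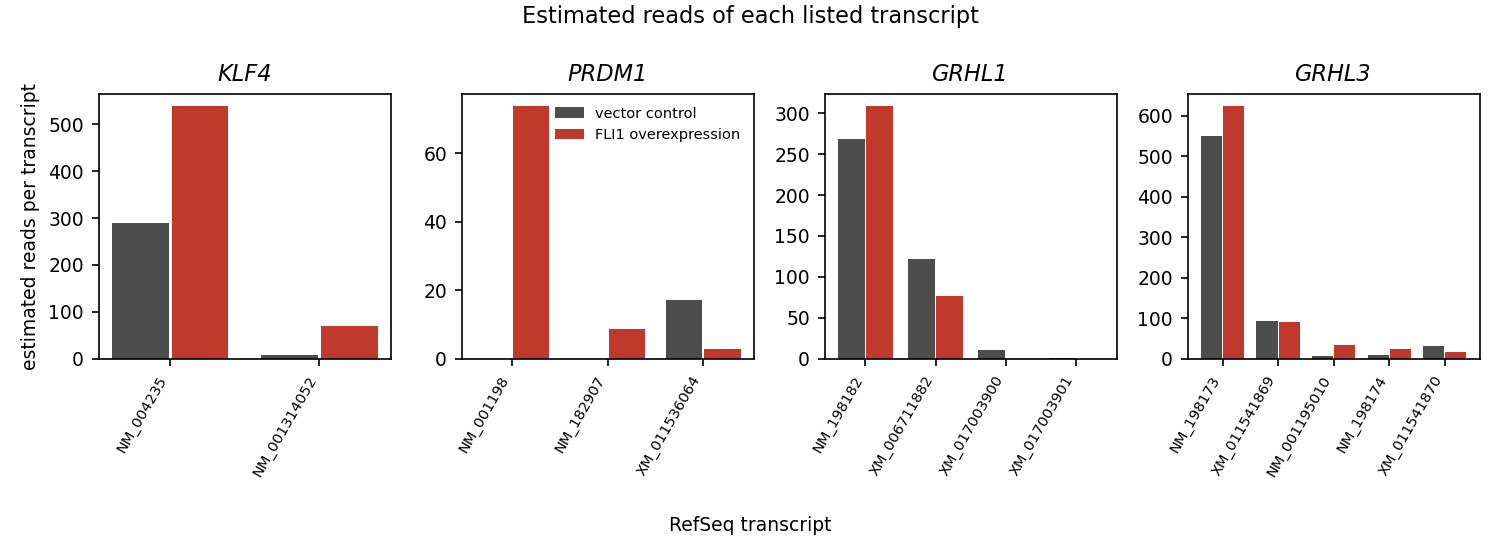
Estimated reads of each listed RefSeq transcript of KLF4, PRDM1, GRHL1 and GRHL3 for the vector control (grey) and FLI1 (red) libraries, 1 of each, on axes that start at 0. PRDM1 reads sit on XM_011536064 in the control and mostly on NM_001198 in the FLI1 library, while both KLF4 transcripts have more reads in the FLI1 library.

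Relatives of the 9 factors were read beside them. Of 23 relatives past the minimum, 2 reached 1.5-fold on the higher side and none on the lower, against 3.51% and 2.09% of all genes. Intervals lay above 0 for 6 and below 0 for 2, against 16.5% and 14.7% of all, and the median ratio was 0.05. KLF6, an injury-responsive Krüppel-like factor, had 805 and 1532 reads (0.94, 0.81 to 1.06), an interval that overlaps that of KLF4. KLF5, which is abundant in basal keratinocytes, had 2713 and 2794 reads (0.05, -0.03 to 0.13), and KLF3 (0.25) and KLF7 (0.33) had smaller differences with intervals above 0. The small MAF factor MAFF, which lacks an activation domain of its own, had 328 and 584 reads (0.84, 0.64 to 1.04). TP73, a relative of TP63, was lower with 132 and 96 reads (-0.45, -0.85 to -0.06). OVOL2 had 112 and 84 reads (-0.41, -0.83 to 0.01). KLF3, KLF5, KLF7, TP73 and OVOL2 were picked after their values had been seen.

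**Figure D4:**
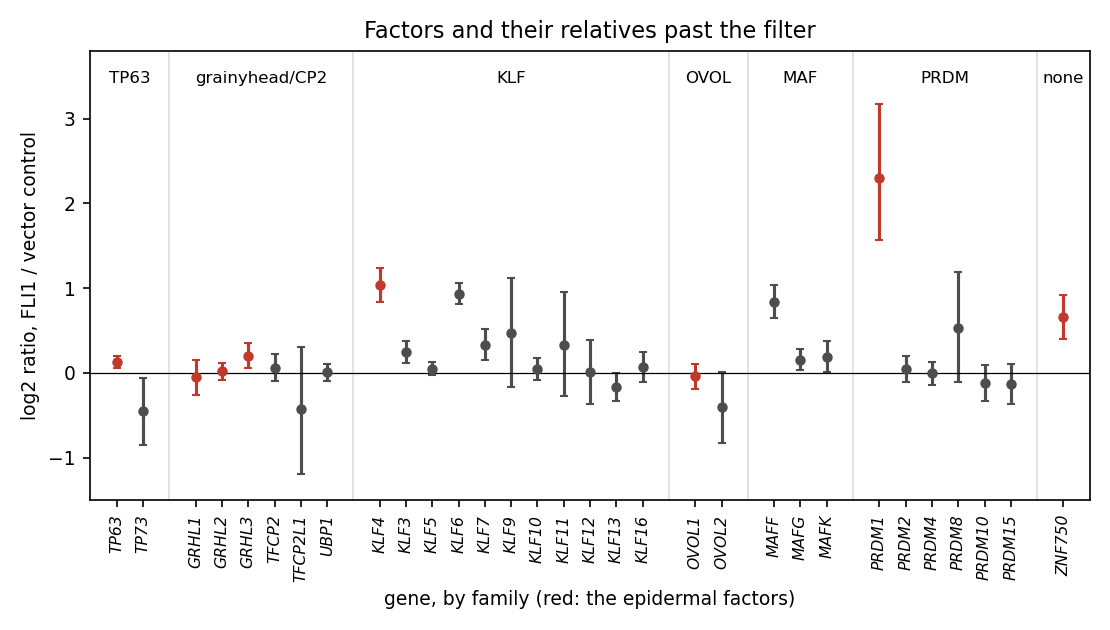
Log2 ratio, FLI1 library over vector control, of the factors (red) and their relatives (grey) that reached 20 reads in 1 or both libraries, grouped by family, with bars for the 95% counting interval. In the Krüppel-like family KLF4 (1.04) and KLF6 (0.94) stand above the rest, and the grainyhead-like genes lie between -0.05 and 0.20.

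Other transcription factors of epidermis were read next. Of 24 measured genes in that list, 1 reached 1.5-fold on the higher side and none on the lower, a share near the 3.51% and 2.09% of all genes. Intervals lay above 0 for 7, below 0 for 4 and across 0 for 13, against 16.5% above and 14.7% below for all, and the median ratio was 0.03, though below 0 from FPKM or TPM. SOX9, a factor of hair follicle progenitors, was the 1 past 1.5-fold, with 724 and 1174 reads (0.70, 0.57 to 0.84). The inhibitors of differentiation ID1 (3046 and 2290 reads, -0.40, -0.48 to -0.33) and ID3 (3301 and 2344 reads, -0.49, -0.56 to -0.41) were lower, as was CEBPA (98 and 69 reads, -0.50, -0.96 to -0.04), a factor of suprabasal cells. ID1, ID3 and CEBPA were picked after their values had been seen. Chromatin regulators of progenitors and differentiation had a median ratio of -0.01 in 19 genes, with none past 1.5-fold (3.51% higher and 2.09% lower of all genes), and with 1 interval above 0 and 5 below it (16.5% and 14.7% of all). KDM1A, a demethylase that ZNF750 recruits, had 8076 and 7013 reads (-0.20, -0.24 to -0.15), and HDAC1, a histone deacetylase, had 3543 and 3622 (0.04, -0.03 to 0.11). STAU1, which works with the differentiation lncRNA TINCR, had 3367 and 3270 reads (-0.03, -0.10 to 0.04).

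Genes known to depend on these factors were then read by factor. Intervals narrow with depth, from a half-width of 0.97 at 20 reads in each library to 0.13 at 1000. The shares of all genes were not matched for depth, so a larger share in a list is not read as more change. For p63, 19 target genes passed the minimum, with 7 intervals above 0, 7 below 0 and 5 across it, against 16.5% above and 14.7% below for all genes. Their median ratio was -0.0175, and it was 0.0253 with no minimum on reads. BHLHE40, a repressor that responds to hypoxia and the circadian clock, was the 1 gene past 1.5-fold (714 and 1168 reads, 0.72, 0.58 to 0.85). Of all genes, 3.51% were 1.5-fold higher and 2.09% lower. For the grainyhead-like factors, 16 target genes had a median ratio of 0.03, with 7 intervals above 0, 3 below it and 6 including it (16.5% above and 14.7% below for all genes). The tight junction gene CLDN4 was the 1 past 1.5-fold, with 1997 and 3006 reads (0.60, 0.52 to 0.68), against 3.51% higher and 2.09% lower of all genes. CDH1 (0.12) and CLDN7 (0.01), picked after their values had been seen, were not past it. Mesenchymal genes that OVOL and grainyhead-like factors hold back had 6 measured members, 4 with an interval above 0 and none below it (16.5% and 14.7% of all genes), and a median of 0.33. FN1 (3691 and 5338 reads, 0.54, 0.48 to 0.60), SNAI2 (463 and 549 reads, 0.25, 0.07 to 0.44) and TGFBR2 (695 and 803 reads, 0.22, 0.07 to 0.36) had intervals above 0. CDH2 (211 and 202 reads, -0.05) and SMAD7 (80 and 106 reads, 0.41) had intervals that included 0. VIM (1 and 2 reads), SNAI1 (7 and 6), ZEB1 (2 and 11) and ZEB2 (0 and 1) were under the minimum. Of these, only ZEB1 had an interval above 0 (0.27 to 5.68). FN1, SNAI2, TGFBR2, CDH2, SMAD7, VIM, SNAI1, ZEB1 and ZEB2 were picked after their values had been seen. Of the 6 measured, TGFB2 was the 1 past 1.5-fold, with 26 and 45 reads (0.79, 0.07 to 1.55), against 3.51% higher and 2.09% lower of all genes.

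The list of late differentiation genes that depend on ZNF750, KLF4 or PRDM1 held genes with higher and with lower ratios. Of 16 measured genes, 6 reached 1.5-fold on the higher side and 1 on the lower, against 3.51% and 2.09% of all genes. Intervals lay above 0 for 10, below it for 3 and included it for 3, against 16.5% above and 14.7% below for all. The median ratio was 0.27, but 0.0819 over the genes with at least 100 reads in 1 or both libraries and 0.15 from FPKM with 1 added. CDSN, the glue protein of corneodesmosomes, had 8 and 24 reads (1.54, 0.39 to 2.96). The cornified cell genes CNFN (2 and 24 reads), SBSN (10 and 73 reads) and SPRR2A (20 and 64 reads) had ratios of 3.30, 2.82 and 1.66. CNFN, SBSN and CDSN passed the minimum through the FLI1 library only. With at least 100 reads asked for, 11 genes were left, 6 with intervals above 0 and 2 below it. Among these 11, 2 were at least 1.5-fold higher, SPRR2D (87 and 171 reads, 0.98) and SPRR1B (292 and 453 reads, 0.64), and none was 1.5-fold lower. The shares of all genes given above are for the minimum of 20 reads, and those at 100 reads were not computed. The barrier genes TGM1, a transglutaminase (264 and 368 reads, 0.49, 0.25 to 0.72), and ABCA12, a lipid transporter (124 and 168 reads, 0.44, 0.10 to 0.79), had intervals above 0. Filaggrin, FLG (1106 and 941 reads, -0.23, -0.35 to -0.10), had an interval below 0. So did the spinous keratins KRT1 (74 and 30 reads, -1.28) and KRT10 (618 and 506 reads, -0.28, -0.45 to -0.11). IVL (234 and 205 reads, -0.18, -0.46 to 0.09), SPRR1A (208 and 196 reads, -0.08) and CERS3 (341 and 359 reads, 0.08) had intervals that included 0. As KRT1 and KRT10 belong to the spinous layer, the list is not of late genes only. The genes after SPRR2A in this account were picked after their values had been seen. The list was chosen with results of these libraries known, so its counts are not independent evidence of a direction.

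**Figure D5:**
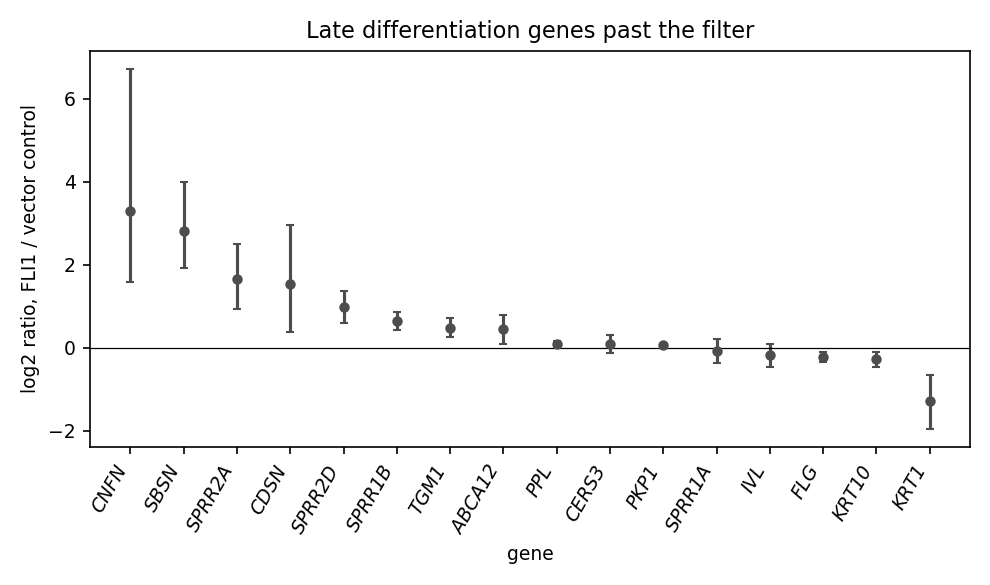
Log2 ratio, FLI1 library over vector control, of the 16 genes of the late differentiation list that reached 20 reads in 1 or both libraries, with bars for the 95% counting interval. The ratios run from 3.30 for CNFN to -1.28 for KRT1, and the bars are widest for genes with few control reads.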

How the data were processed

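Both libraries were grouped by their genotype labels. Sequencing was on a BGISEQ instrument against GRCh38.p13, per the labels' protocols and the submitters' processing notes. The aligner, counter, annotation and strand setting were not given in the sources used here. Per the file headers, a gene table and a transcript table of 61479 transcripts give read counts, FPKM and TPM. The authors' deposited counts are estimated counts (84.1% and 84.5% of genes whole within 0.005 reads) and were rounded, although counts had been foreseen. The authors' deposited FPKM and TPM, scaled for length and depth, served for levels and as other scales.

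TMM factors came from edgeR 4.0.16 (R 4.3.3). Ratios use rounded counts plus 0.5, with exact conditional (Clopper-Pearson) 95% intervals from scipy 1.17.1, tested on simulated data. Half-widths were 0.97 at 20 reads in each library, 0.41 at 100 and 0.13 at 1000. FPKM intervals are exact Poisson intervals of the reads. No p-value was computed, because edgeR's quasi-likelihood test needs replicates. Positions and transcript pairs came from GENCODE release 29.

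The 9 factors and 13 gene lists were chosen with earlier results of these data known. Some genes of these lists are not reported here and are in none of the lists' counts. Named genes are the factors, FLI1 and, per list, up to 4 genes past 20 reads and 1.5-fold by size of ratio, or otherwise the 2 most abundant by FPKM; others are said to be picked after their values had been seen. Alternatives were DESeq2 1.42.0 size factors, library totals, FPKM with 0.5 or 1 added, TPM with 0.5 added, no minimum, and a minimum of 100 reads.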

Additional observations from a re-analysis of the deposited data

How the results depend on the processing

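The number of factors at least 2-fold higher, 2 in the main analysis, was 1 from FPKM with 0.5 added, 0 from FPKM with 1 added, 1 from TPM with 0.5 added and 1 at a minimum of 100 reads. The last value follows from PRDM1 having fewer reads than that, and the added constants shrink ratios of low genes. On these scales the ratio of PRDM1 was 1.30 with 0.5 added to FPKM and 0.89 with 1 added. The other 52 of 54 alternative ratios of single factors stayed within their counting intervals. The number at least 1.5-fold higher, 3 in the main analysis, was 2 from FPKM with 1 added, where ZNF750 had a ratio of 0.549. It was also 2 at a minimum of 100 reads, and there the intervals above 0 numbered 4 in place of 5. Under each alternative run, the numbers at least 1.5-fold lower and with an interval below 0 stayed at 0. The median of other epidermal transcription factors turned below 0 from FPKM with 0.5 added (-0.0201), FPKM with 1 added (-0.0192) and TPM with 0.5 added (-0.0274). That of p63 target genes, -0.0175 in the main analysis, was 0.0253 with no minimum. The cause of these 4 sign changes was not tested. Depth limits MAF, the TA forms of TP63, the control value of PRDM1 and the minor transcripts of KLF4 and GRHL3. The median of the late differentiation list was 0.0819 at a minimum of 100 reads, against 0.2725. No paired analysis was possible because each group has 1 library.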
